A study of Mus musculus with 8 samples.

Results

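In tumors from mice given TP-16, 6 of 19 dendritic cell genes, 4 of 10 MHC class II genes and 6 of 19 genes of a T-cell list were called higher (1.03% of all genes were). Of 7 red blood cell genes, 5 were called lower (2.19% of all genes were). A call needed a fold of 2 and an adjusted p of 0.05 or less. At that adjusted p and any fold, 4 of 18 genes of the interleukin 6 family list fell, near the share of all genes (18.1%). Among them were the ligands Il11 and Il6, whose differences turned to 0.03 and 0.15 when arrays were scaled to spike-in probes. The calls depended on single arrays, and leaving out any 1 array outside vehicle ended those of the class II genes. The comparison sets 4 arrays with TP-16 (2 of TP-16 alone and 2 of TP-16 with anti-PD-1 antibody) against 4 without (2 of vehicle and 2 of the antibody alone), which is every array of the series of 8, and the antibody enters an additive model as the other factor. It gives the average difference between arrays with and without TP-16 over both antibody settings. These arrays also lay in different slide columns, which cannot be told apart from TP-16. All arrays come from tumors grown under the skin from CT26, a colon carcinoma line that arose in the BALB/c strain. The labels give 500000 implanted cells, and labels and methods together give mice of 6 to 10 weeks, a start at 100 to 200 mm3, TP-16 (labelled BY001) at 75 mg/kg by mouth each day, the anti-PD-1 antibody at 50 µg into the peritoneum 2 times a week, and 2 weeks of treatment. CT26 is 1 transplanted line in 1 mouse strain. The methods name a rat IgG2a isotype control at the antibody's dose, while the labels do not say which groups received it. Pooling of tumors is neither stated nor denied, so p-values measure the spread between these samples, which may be technical.

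Prostaglandin E2 is a lipid made from arachidonic acid by the cyclooxygenases and the prostaglandin E synthases, and it acts on the receptors EP1 to EP4. EP2 and EP4, the products of Ptger2 and Ptger4, raise cAMP, which through protein kinase A activates the transcription factor CREB. TP-16 is a small molecule that blocks EP4. In tumors this pathway is known for restraining dendritic cells and T cells, and the cross-presenting dendritic cells (cDC1) that carry Clec9a and Xcr1 are the cells that show tumor antigen to CD8 T cells.

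A level below is the log2 intensity of a probe minus the 75th percentile of its array, a difference is the mean of the TP-16 arrays minus that of the others on the log2 scale, and levels of different probes are not comparable. All 8 arrays lay on 1 slide. The TP-16 arrays filled columns 3 and 4 and the others columns 1 and 2, so slide column and TP-16 cannot be told apart, nor can slide row and antibody. The subtracted percentile was 530.2 to 733.6 intensity units on the TP-16 arrays and 371.1 to 414.9 on the others, 51.4% to 59.7% of probes were well above background, and 0 were saturated. The 16674 probes never well above background had median levels of -7.15 to -6.85 on the TP-16 arrays and -6.54 to -5.91 on the others, so dim probes move with TP-16 in this scaling. As a check of the tissue, the pan-leukocyte gene Ptprc, the macrophage genes Adgre1 and Csf1r, the fibroblast genes Col1a1 and Pdgfrb, the endothelial genes Pecam1 and Cdh5 and the keratins Krt8, Krt18 and Krt19 were measured. The brightest Ptprc probe was called higher with TP-16 (1.00, limma adjusted p = 0.0212), and of its other probes 1 rose by 0.93, 1 did not pass (0.08) and 1 was called lower (-1.16), and the leukocyte integrins Itgb2 (1.00) and Itgal (1.21) were called higher. Their part in the immune results below was not tested. The epithelial adhesion gene Cdh1 was dim (-3.79 to -2.06), and Epcam was not well above background on both arrays of any group. In bulk tumor RNA, fewer cells of a type and less RNA per cell cannot be told apart.

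A probe was called where its fold reached 2 and limma's p, adjusted by Benjamini and Hochberg's method, did not exceed 0.05. That held for 905 of 31912 tested probes (2.84%), of which 306 were higher with TP-16 (0.959%) and 599 lower (1.88%). With limma's unadjusted p in place of the adjusted one the count was 1532 (4.8%). With 1 probe for each of 21481 genes, 222 genes were called higher (1.03%) and 471 lower (2.19%), and at adjusted p with any fold 911 were higher (4.24%) and 3898 lower (18.1%). Below, "rose" and "fell" refer to this adjusted p, and "called" adds the fold of 2. The split depended on the scaling. The median difference of all tested probes was -0.11, so a gene at 0 lay slightly above the average probe. After quantile normalization that median was 0.02 and 601 of 816 called probes were higher (73.7%, against 33.8% here). Of the called probes, 269 of the 306 higher and 215 of the 599 lower were called in the same direction after quantile normalization. With normexp background correction, 87 of the 306 and 225 of the 599 were. Scaling to the spike-in probes, chosen after the data had been seen, gave a median of 0.97 with 99.3% of 14809 called probes higher. The count rested on single arrays and on the model. Without TP-16 replicate 1 limma called 0 probes (1361 at the unadjusted threshold), and it called 253 without combination replicate 2, 330 without anti-PD-1 replicate 2 and 371 without anti-PD-1 replicate 1. Without the antibody term it called 0 (1322 unadjusted). The methods' t-test also called 0 after adjustment and 927 at an unadjusted p.

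**Figure D1:**
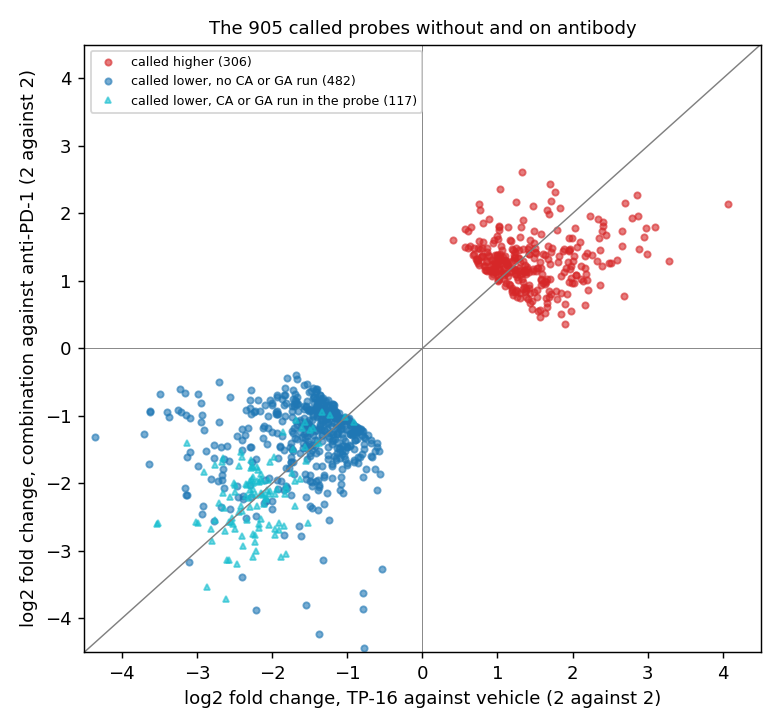
Log2 difference of the 905 called probes between TP-16 and vehicle (x axis, 2 arrays against 2) and between the combination and anti-PD-1 (y axis, 2 against 2). Each point is 1 probe, the diagonal marks equal differences, and triangles mark the 117 lower probes whose sequence holds a CA or GA run. All 306 higher probes had positive and all 599 lower probes negative differences in both. Probes beyond the axis limits, such as that of Efcab13 (-5.49 on antibody), are not drawn.

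The TP-16 difference can be taken in either setting, without antibody (TP-16 minus vehicle) and on antibody (combination minus anti-PD-1), and these contrasts share no array. All 306 probes called higher were positive in both and all 599 called lower were negative in both, a sign that choosing probes on the mean of both favours. The median difference of the higher probes was 1.33 without antibody and 1.27 on antibody, and that of the lower probes was -1.54 and -1.33. An unadjusted p of at most 0.05 was reached in both contrasts by 183 of the 306 and by 411 of the 599. Choosing probes on the mean of both contrasts also favours a small p in each. The share over all tested probes is not given, so these counts cannot decide whether the result repeats between the settings. The difference between both contrasts was called for 0 of the tested probes at adjusted p in limma (smallest 0.0704), and 2336 probes reached an unadjusted p of 0.05. The 4 TP-16 arrays lay beyond the 4 others for 5997 probes (18.8%), and for 95 of the 306 higher and 466 of the 599 lower probes.

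The receptors came first. Ptger2, which encodes EP2, was called higher, and Ptger4, which encodes EP4, the target of TP-16, rose on both of its probes, of which the dimmer was called. The level of Ptger2 was -3.17 and -2.29 in vehicle, -2.10 and -2.34 with anti-PD-1, -1.91 and -2.04 with TP-16, and -0.91 and -0.35 in the combination. All 4 TP-16 arrays were above the others, but the antibody arrays without TP-16 came close to TP-16 alone. The difference was 1.18 (standard error 0.27, limma adjusted p = 0.0296), from -2.48 ± 0.47 (SD, n = 4) to -1.30 ± 0.81 (SD, n = 4). Ptger4 was -0.37 and 0.01 in vehicle, 0.71 and 0.28 with anti-PD-1, 0.78 and 0.19 with TP-16, and 1.29 and 1.87 in the combination. The groups overlapped, with TP-16 replicate 2 below both anti-PD-1 arrays, and the difference was 0.88 (standard error 0.22, limma adjusted p = 0.0360). The dimmer Ptger4 probe went from -3.07 ± 0.81 (SD, n = 4) to -1.87 ± 0.70 (SD, n = 4), a difference of 1.2 that was called (standard error 0.25, limma adjusted p = 0.0242). The adjusted p was 0.0606 for Ptger2 and 0.0711 for Ptger4 when vehicle replicate 1 was left out (the brighter probe), and both passed without vehicle replicate 2 or TP-16 replicate 2 and not without any other single array. Ptger1, which encodes EP1, had a difference of 0.003 (adjusted p = 0.994), turning to -0.39 with normexp background correction, and Ptger3, which encodes EP3, was not tested. Probes of Ptger2 and Ptger4 lie on chromosome 14 (45622004 to 45622063) and chromosome 15 (5183422 to 5183481) of mm9, the build of the array annotation.

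Of 12 genes that make, carry or break down prostaglandin E2, 0 were called and their median difference was -0.06, against -0.14 over all genes. The inducible cyclooxygenase Ptgs2 was 2.71 and 2.21 in vehicle, 2.45 and 2.89 with anti-PD-1, 2.50 and 2.28 with TP-16, and 2.68 and 2.51 in the combination, a difference of -0.07 (standard error 0.15, limma adjusted p = 0.747). All groups overlapped. The constitutive cyclooxygenase Ptgs1 (-0.32), the phospholipase Pla2g4a (-0.27), the synthases Ptges (-0.29) and Ptges3 (-0.17) and the reductases Ptgr1 (-0.01) and Ptgr2 (-0.04) did not pass, nor did Hpgd (0.88, adjusted p = 0.0632), the dehydrogenase that inactivates the lipid. The synthase Ptges2 fell by 0.32 (adjusted p = 0.0437), and the prostaglandin transporter Slco2a1 rose by 0.51 (adjusted p = 0.0155), its arrays overlapping between the groups. In the spike-in scaling Ptges2 turned to 0.76, and the differences of Pla2g4a, Ptgs1, Ptgs2, Ptges, Ptges3, Ptgr1 and Ptgr2 also turned positive.

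**Figure D2:**
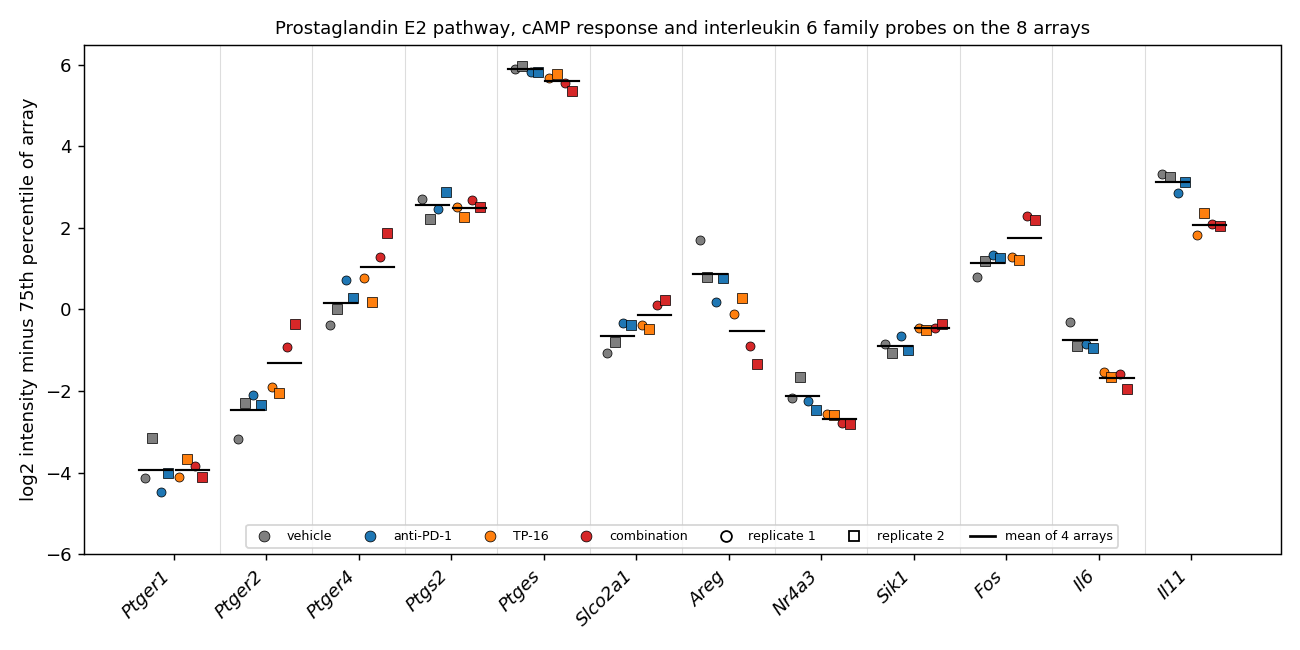
Level on the log2 scale, with each array's 75th percentile subtracted (y axis), for 12 probes of the prostaglandin E2, cAMP response and interleukin 6 genes (x axis). Each point is 1 array, colored by group and shaped by replicate, and bars are means of 4 arrays without (left) and with TP-16 (right). The 4 TP-16 arrays lie below all others for Il6, Il11, Nr4a3 and Ptges and above all others for Ptger2 and Sik1.

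Of 33 tested components of the cAMP pathway (adenylyl cyclases, phosphodiesterases, kinase subunits and CREB factors) 0 were called, with a median difference of 0.09. Adenylyl cyclase 7 (Adcy7, 0.55) and beta-arrestin 1 (Arrb1, 0.55), an adaptor of activated receptors, rose, and the phosphodiesterase gene Pde4c fell by 0.95. Of 20 early response genes known as CREB targets, 1 was called, the epidermal growth factor receptor ligand amphiregulin (Areg). Areg was 1.70 and 0.80 in vehicle, 0.19 and 0.78 with anti-PD-1, -0.12 and 0.27 with TP-16, and -0.89 and -1.35 in the combination. TP-16 replicate 2 and anti-PD-1 replicate 1 overlapped, and the combination was lowest. The difference was -1.39 (standard error 0.26, limma adjusted p = 0.0183). Its call was lost without TP-16 replicate 1, either anti-PD-1 array or combination replicate 2. The 250 bases before the start of Areg (RefSeq, GRCm38.p6, chr5:91139349-91139598, plus strand) are shown because they hold the palindromic cAMP response element TGACGTCA, in capitals, which begins 61 bases upstream of the start:
Areg promoter: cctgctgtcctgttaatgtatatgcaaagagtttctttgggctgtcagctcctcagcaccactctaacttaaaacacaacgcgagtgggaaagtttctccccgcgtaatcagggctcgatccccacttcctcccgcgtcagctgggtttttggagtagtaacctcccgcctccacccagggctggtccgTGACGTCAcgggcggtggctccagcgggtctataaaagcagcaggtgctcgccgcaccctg

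The other early response genes did not move together. Nr4a3, an orphan nuclear receptor, fell by 0.55 (adjusted p = 0.0337), and its 4 TP-16 arrays (-2.81 to -2.56) lay below the others (-2.47 to -1.64). The kinase gene Sik1 (0.44, adjusted p = 0.0316), the antiproliferative gene Btg2 (0.60, adjusted p = 0.0426) and Fos, a subunit of AP-1 (0.60, adjusted p = 0.0457), rose. Fos was 0.80 and 1.18 in vehicle, 1.33 and 1.25 with anti-PD-1, 1.29 and 1.21 with TP-16, and 2.28 and 2.20 in the combination, so only the 2 combination arrays stood above the rest. Its contrasts without and on antibody differed at an unadjusted p of 0.0188, which did not pass adjustment. The remaining 15 genes (Crem, Dusp1, Egr1, Fosb, Gem, Ier2, Jun, Junb, Nr4a1, Nr4a2, Pck1, Per1, Per2, Ppargc1a and Thbs1) had differences of -0.37 to 0.47 that did not pass. The median of the list was 0.14. In the spike-in scaling Nr4a3 turned to 0.53, and the negative differences of Jun, Junb, Egr1, Nr4a1, Ier2, Pck1 and Ppargc1a turned positive. Among the 300 bases from 250 before to 50 after the start, TGACGTCA, searched on both strands, was in 2.03% of all 27025 promoters and 3.19% of the promoters of tested genes. It was in 1 of 152 promoters of genes called higher (0.658%) and 3 of 194 of genes called lower (1.55%). Its core TGACG, which every such palindrome holds, was in 23% of all promoters, 31.7% of those of tested genes, 19.7% of the higher and 17% of the lower set.

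In the interleukin 6 family list, 4 ligands fell. Il11 was 3.31 and 3.24 in vehicle, 2.85 and 3.11 with anti-PD-1, 1.82 and 2.35 with TP-16, and 2.10 and 2.05 in the combination. The TP-16 arrays lay below all others, and the antibody arrays stayed close to their counterparts. Il11 was called lower (-1.05, standard error 0.14, limma adjusted p = 0.0130). Il6 was -0.32 and -0.91 in vehicle, -0.84 and -0.95 with anti-PD-1, -1.52 and -1.67 with TP-16, and -1.59 and -1.95 in the combination. Again no TP-16 array reached any other array, and Il6 fell by 0.93 (standard error 0.15, limma adjusted p = 0.0140). The ligands Ctf1 (cardiotrophin 1, -0.68) and Lif (-0.77) also fell, and outside the list so did the related ligand Ctf2 (-1.72). The receptor subunits Il6st (gp130, 0.37) and Lifr (0.95) and the kinases Jak1 (0.36), Jak2 (0.38) and Tyk2 (0.50) rose, while other probes of Lifr (0.08 and 0.75) and Tyk2 (-0.24) did not pass. Of the 18 tested genes 1 was called, 5 rose and 4 fell at any fold (4.24% and 18.1% of all genes), 9 did not pass, and the median was 0.19. The share that fell was thus near that of all genes. In the spike-in scaling 0 fell, and the differences of Il11 (0.03) and Il6 (0.15) lost their sign. Without TP-16 replicate 1 the adjusted p was 0.0512 for Il11 and 0.0520 for Il6.

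Of 19 tested dendritic cell genes, 6 were called higher with TP-16 and 0 lower, 11 rose at any fold, and the median difference was 0.93, against -0.14 over all genes. Clec9a, the receptor for dead cell material on cDC1, had the brighter of its 2 probes at -6.36 and -4.43 in vehicle, -2.41 and -3.48 with anti-PD-1, -1.15 and -1.51 with TP-16, and -1.31 and -0.30 in the combination. All TP-16 arrays were above all others, and vehicle was lowest. The difference was 3.10 (standard error 0.60, limma adjusted p = 0.0203), and the second probe differed by 2.42 (adjusted p = 0.0375). Without TP-16 the brighter probe was well above background on 2 of 4 arrays and the second on 3 of 4, so the sizes of these differences rest in part on values near background. They were 2.52 and 1.77 when vehicle replicate 1 was left out. Flt3, the growth factor receptor of dendritic cell precursors, was -3.79 and -3.47 in vehicle, -1.91 and -2.59 with anti-PD-1, -1.56 and -1.49 with TP-16, and -1.09 and -0.24 in the combination. It rose by 1.84 (standard error 0.25, limma adjusted p = 0.0130) with no overlap. Septin3, a septin gene transcribed in cDC1, was -3.24 and -3.24 in vehicle, -2.13 and -2.97 with anti-PD-1, -1.31 and -1.19 with TP-16, and -1.31 and -0.52 in the combination. The TP-16 arrays again stood above all others, with a difference of 1.81 (standard error 0.24, limma adjusted p = 0.0130).

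The integrins Itgae (CD103, 1.37) and Itgax (CD11c, 1.19) and the lysosomal amidase Naaa (1.31) were also called, each with no overlap. Below a fold of 2, the transcription factor Zbtb46 (0.89), the chemokine receptor Ccr7 (0.93), the RNA sensor Tlr3 (0.76), the adhesion molecule Cadm1 (0.44) and the endocytic receptor Ly75 (0.31) rose. Another Cadm1 probe, which holds a CA or GA run, was called lower (-2.17), and the 2 other Zbtb46 probes did not pass (-0.31 and -0.48). The chemokine receptor Xcr1 (1.74, adjusted p = 0.0906) and the cDC1 transcription factor Batf3 (1.00, adjusted p = 0.0633) did not pass. Siglech, a gene of plasmacytoid dendritic cells, went the other way without passing (-0.65, adjusted p = 0.0617, with its other probes at -0.55 and 0.93). Without anti-PD-1 replicate 2 or without combination replicate 2 the number called was 3, and without TP-16 replicate 1 it was 0. Leaving out vehicle replicate 1 kept the number at 6, with a median of 0.85.

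**Figure D3:**
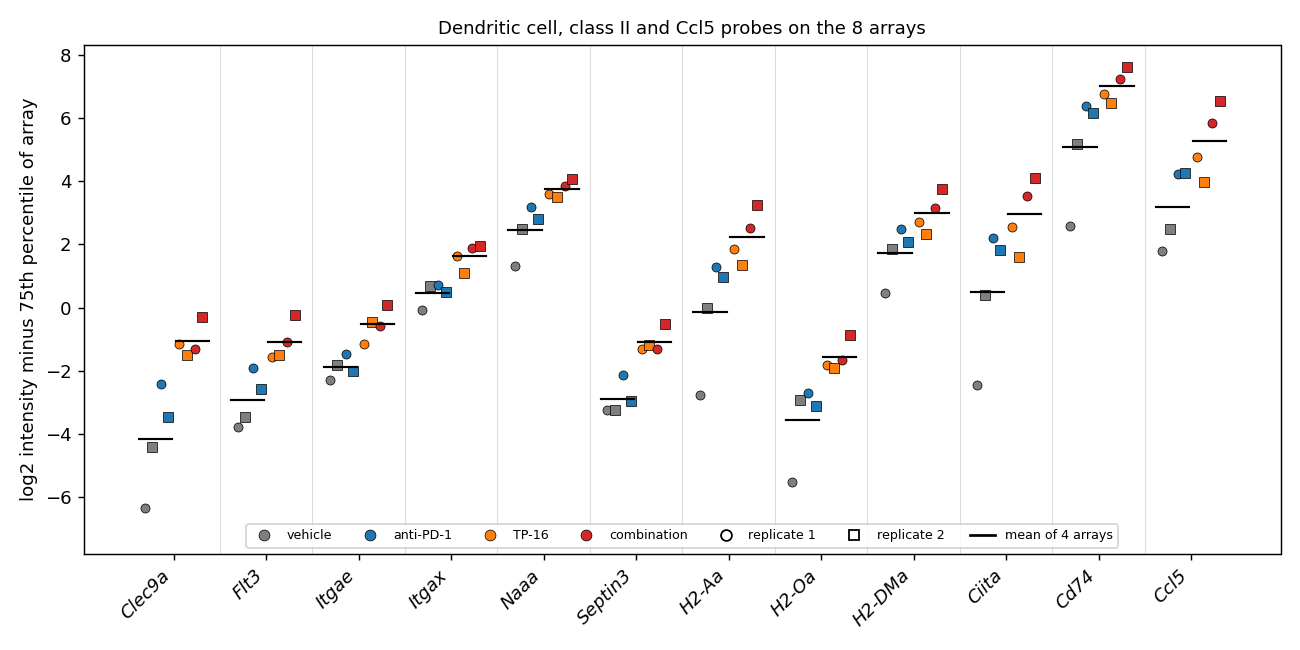
Level on the log2 scale, with each array's 75th percentile subtracted (y axis), for 12 probes of dendritic cell genes, class II genes and Ccl5 (x axis). Each point is 1 array, colored by group and shaped by replicate, and bars are means of 4 arrays without (left) and with TP-16 (right). Vehicle replicate 1 lies lowest for 11 of these probes by itself and for Septin3 together with vehicle replicate 2.

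The class II genes, whose products present antigen to CD4 T cells, had the highest median of the lists, 1.62 over 10 tested genes, of which 4 were called higher. H2-Aa, the alpha chain of I-A, was -2.76 and -0.02 in vehicle, 1.27 and 0.95 with anti-PD-1, 1.84 and 1.33 with TP-16, and 2.53 and 3.26 in the combination. The order of groups was vehicle, anti-PD-1, TP-16, combination, with no overlap between arrays with and without TP-16. The difference was 2.38 (standard error 0.60, limma adjusted p = 0.0380). Ciita, the transactivator of class II genes, was called too (2.45, adjusted p = 0.0415), although TP-16 replicate 2 (1.60) lay below both anti-PD-1 arrays (1.83 and 2.21). Its other probes differed by 2.36, which was called, and by 0.80, which did not pass. H2-Oa, a chain of the peptide exchange modulator H2-O, and H2-DMa, a chain of the peptide exchange factor, completed the called genes of the list (1.99 and 1.26), and outside it the alpha chain gene H2-Ea was called too (2.30, adjusted p = 0.0420). The invariant chain Cd74 had a difference of 1.95 (adjusted p = 0.0609), H2-Ab1 1.5, H2-Eb1 1.52 and H2-DMb1 1.72, and these did not pass.

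Vehicle replicate 1 stood apart. The mean level of the class II genes was -0.91 on that array, 1.46 on vehicle replicate 2, 1.61 and 2.00 with anti-PD-1, 2.10 and 2.42 with TP-16, and 2.80 and 3.16 in the combination. Leaving it out gave a median difference of 0.96, with 4 genes called and 7 that rose at any fold. Leaving out any single array outside vehicle gave 0 called in limma. With the replicate number as a block 1 was called, and after quantile normalization 2. The 250 bases before the start of H2-Aa (RefSeq, GRCm38.p6, chr17:34287824-34288073, minus strand) are shown because H2-Aa was the 1 gene called higher that holds TGACGTCA, here 74 bases upstream:
H2-Aa promoter: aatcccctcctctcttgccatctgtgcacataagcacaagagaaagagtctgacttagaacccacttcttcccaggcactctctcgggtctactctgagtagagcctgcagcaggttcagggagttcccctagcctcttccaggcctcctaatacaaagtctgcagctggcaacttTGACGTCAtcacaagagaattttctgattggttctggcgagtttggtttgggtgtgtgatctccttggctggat

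A list of T-cell receptor, coreceptor and costimulator genes had a median difference of 1.37 over 19 tested genes, and 6 were called higher and 0 lower, which did not include the receptor chains or Cd8a. Cd27, a costimulatory receptor, was -6.14 and -4.01 in vehicle, -3.23 and -3.47 with anti-PD-1, -2.32 and -2.94 with TP-16, and -2.24 and -1.10 in the combination. It did not overlap but was well above background on 2 of 4 arrays without TP-16, and its difference was 2.06 (standard error 0.51, limma adjusted p = 0.0350). Cd5 and Cd6, modulators of receptor signaling, were called at 1.65 and 1.64, the adhesion molecule Cd2 at 1.54 and the costimulator Cd28 at 1.17, all with overlap. Cd8a was -5.02 and -1.43 in vehicle, -0.50 and -0.79 with anti-PD-1, 0.12 and -0.74 with TP-16, and 0.21 and 0.85 in the combination, and its difference of 2.05 did not pass (standard error 0.79, adjusted p = 0.110) and was 1.15 when vehicle replicate 1 was left out (adjusted p = 0.0398). Apart from vehicle replicate 1, its arrays spanned -1.43 to 0.85. Cd3e, a signaling chain of the receptor, had 0.97 (adjusted p = 0.0593). When vehicle replicate 1 was left out the median of the list was 0.82 with 6 called, without vehicle replicate 2 the number called was 10, and it was 0 without TP-16 replicate 1, anti-PD-1 replicate 2 or combination replicate 2 and 1 without TP-16 replicate 2 or anti-PD-1 replicate 1.

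Among 18 checkpoint and activation genes (median 0.76), 3 were called higher. Btla, an inhibitory receptor of lymphocytes and dendritic cells, was -4.14 and -3.05 in vehicle, -1.77 and -2.35 with anti-PD-1, -0.94 and -0.92 with TP-16, and -0.96 and -0.14 in the combination. Its arrays did not overlap (difference 2.08, standard error 0.36, limma adjusted p = 0.0159). The PD-1 ligands Cd274 (1.06) and Pdcd1lg2 (1.2) were called as well, and Pdcd1, which encodes PD-1, did not pass (1.31, adjusted p = 0.0518). The number called was 4 without vehicle replicate 1 (median 0.57), 7 without vehicle replicate 2, 0 without anti-PD-1 replicate 2 and 1 without combination replicate 2. Of 20 cytotoxic effector genes (median 0.24) 1 was called, the death ligand Tnfsf10 (1.07), whose other probe fell by 0.87 (limma adjusted p = 0.0227), so its direction is uncertain. The granzyme gene Gzmb was 2.17 and 3.70 in vehicle, 4.21 and 4.07 with anti-PD-1, 2.92 and 2.94 with TP-16, and 4.37 and 4.78 in the combination. TP-16 alone lay between the vehicle arrays, and the difference was 0.22 (standard error 0.32, adjusted p = 0.650). The perforin gene Prf1 had -0.21 (adjusted p = 0.670), turning to 0.87 in the spike-in scaling. The cytokine gene Ifng had 1.77 (standard error 0.68, adjusted p = 0.106), with vehicle replicate 1 at -3.58 and the others between -0.49 and 2.38, and was 1.03 when that array was left out.

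Genes induced by interferon gamma (18 tested, median 1.14) had 18 positive differences, and 1 gene, Ciita, was called. Vehicle replicate 1 again stood apart, with a mean level of 1.08 against 3.25 to 4.96 on the others, and without it the median was 0.58, 1 was called and 8 rose at any fold. Ciita lost its call without any single array outside vehicle. The chemokine Cxcl9 (1.59) and the GTPase Gbp5 (1.27, with its other probe at -0.54) did not pass. The gamma-activated site TTCNNNGAA, searched on both strands, was in 11.2% of promoters of genes called higher, 10.3% of those called lower, 8.7% of those of tested genes and 9.55% of all. Of 25 genes induced by type I interferon (median 0.7), 10 rose and 2 of these were called, Oas3 (1.14) and Oasl2 (1.01), both of the oligoadenylate synthetase family. When vehicle replicate 1 was left out 0 were called and 7 rose, and apart from anti-PD-1 replicate 1 (5 called) and combination replicate 1 (3 called), leaving out any other single array also gave 0 called. The interferon-stimulated element core (GAAA, any 2 bases and GAAA again), searched on both strands, was in 8.55% of promoters called higher, 2.58% of those called lower, 3.9% of those of tested genes and 3.99% of all.

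Myeloid genes gave mixed results. Ccl5, a chemokine that draws T cells, was 1.78 and 2.50 in vehicle, 4.22 and 4.26 with anti-PD-1, 4.76 and 3.99 with TP-16, and 5.84 and 6.55 in the combination. TP-16 replicate 2 lay between vehicle and anti-PD-1, and the difference was 2.09 (standard error 0.26, limma adjusted p = 0.0130). Nos2, the inducible nitric oxide synthase, was 0.23 and 0.16 in vehicle, 1.93 and 1.65 with anti-PD-1, 1.34 and 1.05 with TP-16, and 2.80 and 3.28 in the combination. It was called (1.12, standard error 0.15, limma adjusted p = 0.0130) although both TP-16 arrays were below both anti-PD-1 arrays. These were the 2 called of 14 inflammatory (M1) macrophage genes (median 0.51), of which Irf5 rose and Il6 and Cxcl11 fell. Of 16 alternatively activated (M2) genes (median 0.40), 2 were called higher, the transcription factor Irf4 (1.77, well above background on 2 of 4 arrays without TP-16, with its other probe at 0.34, which did not pass) and Pdcd1lg2, and Clec10a (0.92) and Cd200r1 (0.54) rose. The M2 markers Arg1 (0.24), Mrc1 (-0.08, and 1.00 in the spike-in scaling), Chil3 (0.27) and Retnla (2.13, adjusted p = 0.0550) did not pass. Retnla was -0.96 and -0.44 in vehicle, 5.11 and 4.64 with anti-PD-1, 2.53 and 3.38 with TP-16, and 5.30 and 5.69 in the combination. Its TP-16 difference was large without antibody and small on it (unadjusted p of the departure from additivity 0.000986, which did not pass adjustment).

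Of 20 macrophage identity genes (median 0.30), 1 was called, Adgre1 (F4/80, 1.15), and the lysozyme gene Lyz2 fell by 0.46 on its brighter probe (0.49 on the other, which did not pass). Of 13 monocyte genes (median 0.24) and 5 CXCR2 ligands (median -0.38), 0 were called, and of 19 neutrophil genes (median -0.04) 1 was called lower, the stefin Stfa2l1 (-1.21), while the elastase gene Elane fell by 0.40. A further list gathers genes that the study named for this tumor model, in part from these same arrays, so it is not independent evidence. With 24 tested genes (median 0.51) it held 2 called higher, Ccl5 and Cd274, and 1 that fell, Il6. The other members not yet given were Tnf (0.98), Fasl (1.26), Il10 (0.81), Ido1 (1.58, and 0.67 when vehicle replicate 1 was left out), Cxcl10 (0.74), Cd69 (0.66), Il2ra (0.36, with its other probe at -1.02), Il4ra (0.24), Ccl2 (0.24), Cxcl1 (-0.38) and Lamp1 (-0.19), and these did not pass. Cxcl1 turned to 0.70 and Lamp1 to 0.89 in the spike-in scaling, and Lamp1 to 0.27 after quantile normalization.

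Complement genes, a list drawn up by gene name after the values had been seen, had 7 of 23 called higher and 1 lower (median 0.79). C3, the central component, was 3.22 and 4.10 in vehicle, 5.68 and 5.22 with anti-PD-1, 5.84 and 5.80 with TP-16, and 6.47 and 6.79 in the combination. Its arrays did not overlap, though anti-PD-1 replicate 1 came close to TP-16, and its difference was 1.67 (standard error 0.28, limma adjusted p = 0.0148). The classical pathway genes C1rb (1.06), C1s1 (1.28), C2 (1.25) and C4b (1.31) and the alternative pathway gene Cfb (1.13) were called. C4a (1.42), annotated as a transcribed pseudogene, was called too, and the inhibitor Serping1 rose by 0.92. The other C1s1 probe did not pass (0.35). C4a and C4b, and C1s1 and C1s2, are near-identical pairs, so their probes are uncertain and may count 1 signal more than once. C9, a part of the membrane attack complex, was called lower (-1.75). The number called higher was 3 without vehicle replicate 1 (median 0.54) or TP-16 replicate 2, 4 without anti-PD-1 replicate 1 or combination replicate 1, 1 without combination replicate 2, and 0 without TP-16 replicate 1 or anti-PD-1 replicate 2. With the replicate number as a block it was 4. C9 was well above background on 2 of 4 TP-16 arrays and lost its call in 11 of 20 alternatives. Among these were leaving out vehicle replicate 1 (limma adjusted p = 0.0635) and quantile normalization (0.0607).

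Other named rises were Tlr11 (2.12), a Toll-like receptor transcribed in cDC1, the interleukin 18 receptor chain Il18r1 (1.57), the regulator Nupr1l (1.59), Wdfy1 (1.57) and Bcl2l14 (1.57). Over the 20 alternatives the Tlr11 difference ranged from 0.57 to 3.2, and in 9 of them it lost the adjusted p threshold. The other Nupr1l probe (-0.04) and the other Wdfy1 probes (-0.005 and 0.36), of which 1 is the brightest for the gene, did not pass. All 5 probes named had TP-16 arrays beyond the others, as the rule for naming them required. Jchain, the joining chain of secreted antibodies, was -3.26 and -1.61 in vehicle, 0.28 and 0.19 with anti-PD-1, 0.67 and -0.37 with TP-16, and 1.51 and 1.56 in the combination, with a difference of 1.95 (standard error 0.45, limma adjusted p = 0.0309). With the plasma-cell genes Mzb1 (1.41) and Pou2af1 (1.00) it made up the 3 called higher of 12 B-cell and plasma-cell genes (median -0.33), while the B-cell gene Ms4a1 was called lower on 1 probe (-1.45, with the other at 0.16, which did not pass) and the B-cell factor Pax5 (-0.97) and the plasma-cell receptor Tnfrsf17 (-0.46) fell. The list had 1 called higher and 2 lower when vehicle replicate 1 was left out, 1 called higher without TP-16 replicate 2, and 0 called higher without TP-16 replicate 1 or any anti-PD-1 or combination array. Of 17 NK cell receptors (median 0.80) the inhibitory receptor Klrc1 was called higher (1.44, well above background on 2 of 4 arrays without TP-16), and Klra1 (-2.10) and Cd244a (-1.22) lower. The Klra1 probe holds a GA run, another called Klra1 probe (-2.75) holds a CA or GA run, and the third, without a run, was at 0.49 and did not pass, so the calls of this gene rest on run probes. Of the other Cd244a probes 1 fell by 0.61 and 1 did not pass (-0.36). Klra1 and Cd244a were not called when vehicle replicate 1 was left out, which gave a median of 0.42, and Klrc1 was not called without any 1 of the TP-16 arrays, the anti-PD-1 arrays or combination replicate 2. Over all alternatives the Klrc1 difference ranged from 0.13 to 2.52. The lipoprotein lipase gene Lpl was -0.67 and -0.21 in vehicle, 1.36 and 1.05 with anti-PD-1, 1.95 and 0.60 with TP-16, and 2.99 and 3.81 in the combination (1.95, standard error 0.34, limma adjusted p = 0.0158). It was the 1 called of 13 adipose tissue genes (median -0.21). Of the 6 Lpl probes 2 were called higher, and the others, from -1.04 to 1.43, did not pass.

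The largest falls shared a feature of the probe. The 12 probes that the rule named as the largest falls (Arhgef7, Catsperd, Mical1, Wipf3, Bmpr2, Aff1, Mlip, Cldn24, Tmem19, Igdcc4, Pgbd1 and Slco2a1, differences of -2.83 to -2.31) all hold a run of at least 8 letters of the repeated pair CA or GA, and 0 of the 12 largest rises do. For 11 of them the array carries other tested probes of the gene, of which 0 were called. That of Pgbd1 was at -1.52, and those of the other genes ranged from -0.36 (Wipf3) to 0.82 (Igdcc4). Slco2a1 has 2 others, of which 1 is the probe given above, which rose. The stretches of 30 of each probe's 60 bases that hold the run, in capitals, are shown because the run is what these probes have in common (mm9, positions of the whole probe):
Arhgef7 (chr8:11832241-11832300, plus strand): aacagtatACACACACACACAtgcatgtct
Mical1 (chr10:41195683-41195742, plus strand): tgaaaACACACACACACACACACACctggt
Bmpr2 (chr1:59912789-59912848, plus strand): ccaggCACACACACACACAagcaagcaaaa
Mlip (chr9:77194256-77194315, minus strand): catgtgactACACACACACACACACACACA
Cldn24 (chr8:48916746-48916805, plus strand): GAGAGAGAaggatattcaaggaatgtctag
Slco2a1 (chr9:102913679-102913921, plus strand): tttgtttaaAGAGAGAGAGAaagcataaag

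The Arhgef7 probe was -0.32 and -1.48 in vehicle, -0.77 and -1.0 with anti-PD-1, -2.22 and -4.5 with TP-16, and -2.96 and -5.19 in the combination. Replicate 2 was the lower of both groups with TP-16. Over all tested probes, 365 held such a run (1.14%), and 117 of these were called lower (32.1%, against 1.88% of all probes) and 0 higher. They made up 19.5% of the 599 probes called lower, and 72 of the 117 were called lower after quantile normalization too. Their median difference was -0.93, against -0.11 over all probes. The CA and GA probes had median levels of -0.08 and -0.34 in vehicle, -0.24 and -0.35 with anti-PD-1, -0.90 and -1.80 with TP-16, and -1.02 and -1.88 in the combination. The same repeats read on the opposite strand gave other values. Probes with a TG run (302) had a median of 0.22 with 4 called lower and 4 higher, and those with a CT run (158) had -0.26 with 7 called lower and 0 higher. These groups were described after the values had been seen, with no test, and what sets them apart was not tested.

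**Figure D4:**
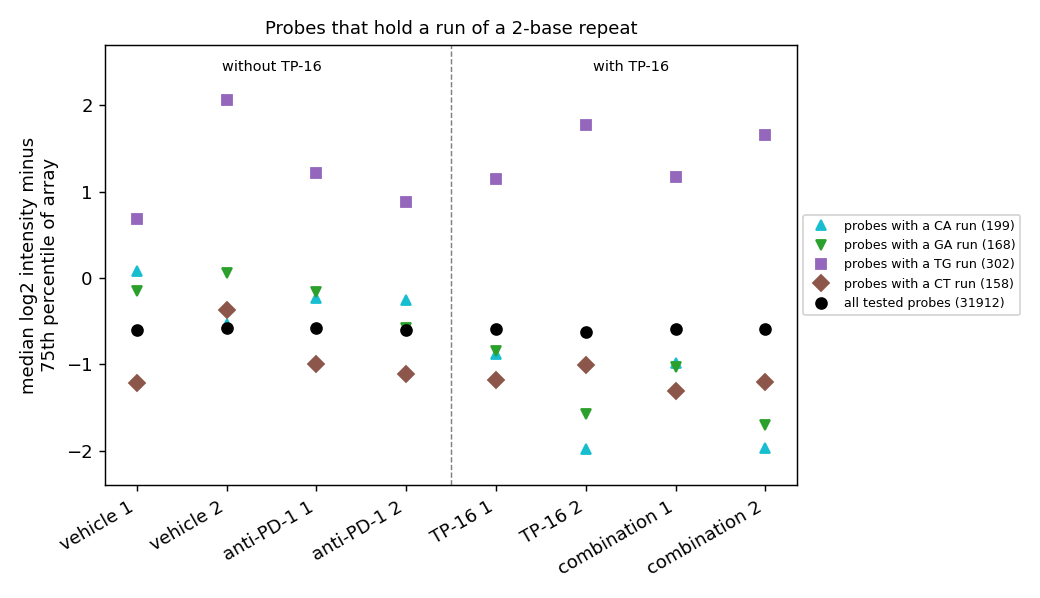
Median level on the log2 scale, with each array's 75th percentile subtracted (y axis), of tested probes that hold a run of a repeated base pair, for each of the 8 arrays (x axis). Each point is 1 median over the number of probes in the legend, and the dashed line separates arrays without and with TP-16. The CA and GA medians of the 4 TP-16 arrays lie below those of the other 4, and the TG and CT medians do not.

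The falls without such a run included the small structured RNAs, a list drawn up by gene name after the values had been seen. Of 27 tested (small nucleolar, small nuclear, RNase P, RNase MRP, vault and 7SK RNAs and the telomerase RNA), 24 were called lower, all 27 fell, and the median was -1.34. Rprl1, an RNase P RNA-like gene, was 0.74 and 0.98 in vehicle, 0.54 and 0.38 with anti-PD-1, -0.70 and -0.56 with TP-16, and -1.17 and -1.84 in the combination. The combination was lowest and no arrays overlapped (-1.73, standard error 0.18, limma adjusted p = 0.0130). Its relative Rprl2 differed by -1.75, and probes of the Rprl genes, Rpph1 and the Rnu1 genes share near-identical targets. The median of the list was -1.19 after quantile normalization with 19 called, but -0.26 with 0 called in the spike-in scaling, where 10 fell and 2 rose at any fold.

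Hemoglobin genes fell. Of 7 tested red blood cell genes 5 were called lower (median -1.46), all of them alpha or beta globins whose probes share near-identical targets. Hbb-b1 was 3.95 and 3.32 in vehicle, 2.04 and 2.06 with anti-PD-1, 1.60 and 1.35 with TP-16, and 0.97 and 1.29 in the combination. Vehicle was highest and the arrays did not overlap (-1.54, standard error 0.28, limma adjusted p = 0.0181). The difference was larger without antibody than on it (unadjusted p of the departure from additivity 0.0108, which did not pass adjustment). Hbb-bt differed by -1.48, and the heme synthesis gene Alas2 by -1.15 (adjusted p = 0.0531). Without TP-16 replicate 2, anti-PD-1 replicate 1 or anti-PD-1 replicate 2 the number called was 3, and without TP-16 replicate 1 it was 0. In the spike-in scaling 0 were called and the median was -0.38.

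The intestinal transcription factor Cdx2 was -2.17 and -1.80 in vehicle, -3.48 and -4.41 with anti-PD-1, -5.20 and -4.33 with TP-16, and -5.37 and -5.38 in the combination. Vehicle stood above the other groups, and anti-PD-1 replicate 2 overlapped with TP-16 (-2.10, standard error 0.37, limma adjusted p = 0.0157). With TP-16 the probe was well above background on 1 of 4 arrays, and without it on 3 of 4, and dim probes as a whole were lower on the TP-16 arrays, whose part in this value was not tested. Of 10 epithelial genes (median -0.66) it was the 1 called, and the galectin Lgals4 fell by 0.49. Col10a1, a collagen of hypertrophic cartilage, was -0.76 and -3.29 in vehicle, -4.07 and -5.13 with anti-PD-1, -3.87 and -5.30 with TP-16, and -6.82 and -7.14 in the combination (-2.47, standard error 0.60, limma adjusted p = 0.0343). The probe was well above background on 2 of 4 arrays without and 1 of 4 with TP-16, the combination values were close to the median of dim probes, and after quantile normalization the adjusted p was 0.115. It was the 1 called of 19 collagens (median 0.31), of which Col1a2 rose by 0.38. Il5ra, a receptor chain of eosinophils, was called lower (-1.04, and 0.04 in the spike-in scaling, well above background on 2 of 4 TP-16 arrays and with an adjusted p of 0.0871 after quantile normalization) among 10 type 2 cytokine and eosinophil genes (median -0.10).

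The 35 cytosolic ribosomal protein genes had 0 called, but all 35 fell by 0.47 to 0.74 with the 75th percentile subtracted (median -0.65). After quantile normalization their median was -0.04 with 0 past adjusted p, and in the spike-in scaling it was 0.43 with all 35 higher. Of 24 respiratory chain genes 15 fell (median -0.34), with 1 after quantile normalization (-0.04) and a median of 0.74 in the spike-in scaling. In the lists of 16 MHC class I genes (median 0.35), 23 PI3K and AKT genes (0.18), 17 transforming growth factor beta and interleukin 10 genes (0.20), 20 fibroblast genes (0.25), 13 metalloproteinases and inhibitors (0.02), 22 endothelial genes (0.12), 20 skeletal muscle genes (0.32), 6 epidermis and hair follicle genes (-0.69), 22 cell division genes (-0.10) and 24 hypoxia and glycolysis genes (-0.06), 0 were called. At any fold (4.24% of all genes rose and 18.1% fell) the phosphatase Inpp5d (0.87) and the PI3K subunits Pik3r5 (0.98), Pik3cg (0.63) and Pik3r1 (0.57) rose with the transcription factor Foxo3 (0.47, with its other probes at 0.26 and -0.80), and the glycolytic genes Ldha (-0.58, with its other probe at 0.17), Pgk1 (-0.49), Eno1 (-0.45) and Gapdh (-0.38) fell while Pfkp rose (0.61). The 4 falls among 24 hypoxia and glycolysis genes were near the share of all genes. Of the remaining lists, the fibroblast genes Islr (0.75), Pdgfra (0.53) and Pdgfrb (0.41), the metalloproteinases Mmp3 (0.52) and Mmp14 (0.48), the interleukin 10 receptor Il10ra (1.00), the binding protein Ltbp2 (0.94), the titin gene Ttn (0.87) and the topoisomerase Top2a (0.38) rose. S100a4 (-0.68) and Vim (-0.45) of the fibroblast list, the division genes Birc5 (-0.29) and Ccnb1 (-0.30), the endothelial ligand Angpt2 (-0.48) and the class I light chain B2m (-0.41) fell.

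**Figure D5:**
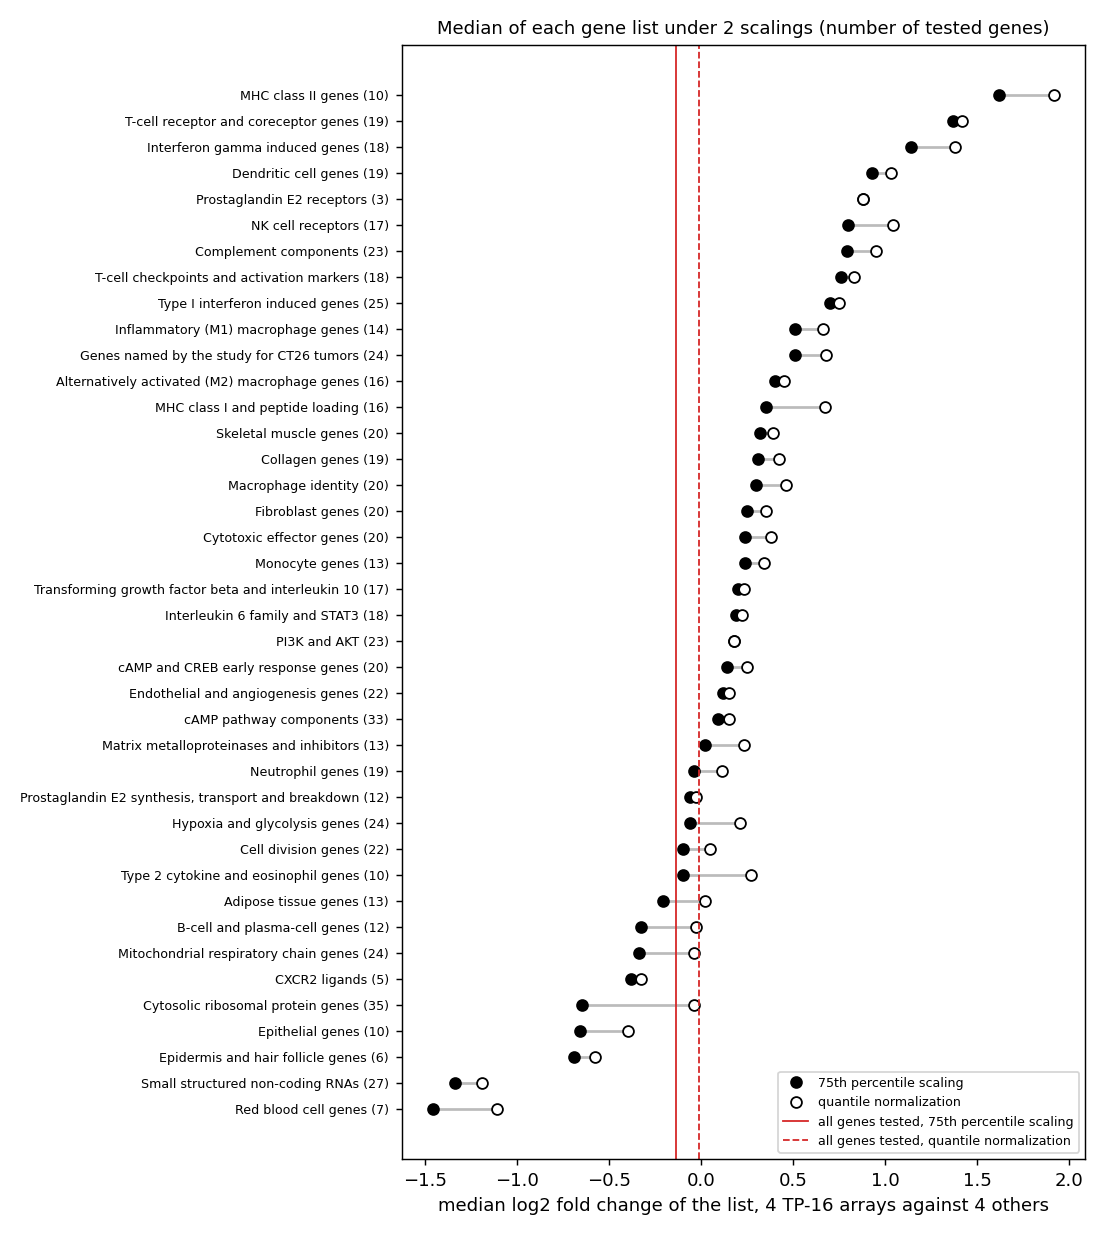
Median log2 difference (x axis) of each gene list (y axis, number of tested genes in brackets). Filled points are values with the 75th percentile subtracted and open points those after quantile normalization, joined by a line, and the red lines are the medians of all genes, -0.14 and -0.01. Class II genes are highest in both scalings, red blood cell genes are lowest among the filled points and small structured RNAs among the open points (-1.19), and the ribosomal protein genes move from -0.65 to -0.04.

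For some further probes only 1 side was well above background, so the fold is a bound. It sets the mean of the bright side against the lowest signal well above background on each array of the other, or the probe's own signal where that was higher. These probes passed the filter through their bright side alone, and the values below background on the other side moved with TP-16, so no p is given. The receptor gene Gpr141b was at least 2.22-fold higher, Ipcef1 at least 1.69-fold higher (overlapping arrays, with its other probe at -0.67) and the second Btla probe at least 1.57-fold higher, and Nefh gave no bound above 1. Rph3al was at least 4.08-fold lower, the sodium pump gene Atp1a4 at least 2.53-fold lower and Uba1y at least 2.39-fold lower (with its other probe at -0.10). The probes not well above background on any array without TP-16 made up 50 of the 306 called higher, and those not above it on any array with TP-16 made up 132 of the 599 called lower.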

How the data were processed

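RNA of 8 CT26 tumor samples was measured on 1-colour Agilent SurePrint G3 mouse arrays. The labels name a column kit for RNA extraction and the methods TRIzol. The authors deposited scanner intensities from Feature Extraction 10.7.1.1 (per the labels), background-subtracted and detrended, and a table of log2 values from GeneSpring, used as an alternative. Control spots and 38 probes with outlier marks were left out, and spots of a probe were averaged. The value was the log2 intensity minus the array's 75th percentile. The number of arrays limits the precision. Testing, in limma 3.58.1 (R 4.3.3), took probes that both arrays of any 1 group showed well above background, with TP-16 and antibody as additive factors, no block and 5 residual degrees of freedom, and Benjamini-Hochberg adjustment over all of them. Departure from additivity used 1 mean per group. A gene was given by its probe with the highest mean. Names came from RefSeq (GRCm38.p6) for 77.3% of probes and from the array otherwise.

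Groups and replicate numbers came from the sample titles. The comparison, its members and the 38 lists were chosen with earlier results of these data known, and the lists of complement genes and small structured RNAs were added after values were seen. The text names the 12 largest rises and 12 largest falls among called probes above background on at least 3 of 4 arrays of each side, without overlap, with the same sign after quantile normalization and no provisional gene name. It adds the 4 largest rises and 4 largest falls above background on all arrays of 1 side and none of the other, every gene of the lists of prostaglandin E2 receptors, synthesis, early response genes and genes the study measured, and up to 2 called members in each direction of every other list. List members that passed adjusted p, and a few that did not, were added after their values were seen. The alternatives were quantile normalization, normexp with an offset of 50, no filter, a filter for background on all 8 arrays, 1 probe for each gene, a block on replicate number, use of the deposited log2 values, 1 mean per group, no antibody term, trended and robust moderation, array weights, the methods' t-test, a fold of 1.5, leaving out each array, and, chosen after seeing the data, scaling to 7 spike-in probes. No slide block could be fitted with 1 slide. Of the calculations, only the additive TP-16 fit was checked on simulated data. Promoters were searched as letters only, and 88 of 116 named genes had one in the table used. A few genes that these rules name are not reported here.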

Additional observations from a re-analysis of the deposited data

Results flagged for a closer look

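Within the 4 arrays of a side, 11 of 238 sets of values for a named gene had an array whose gap to its nearest neighbor exceeded the 95% critical value of Dixon's test, and chance marks about 1 in 20 such sets. Vehicle replicate 1 was the outlying array in 5 of them. It was low for Tlr11 (-6.38), H2-Oa (-5.52), Prf1 (0.65) and Il4ra (1.18) and high for Il6 (-0.32). Vehicle replicate 2 was low for Nr4a2 (1.96, with the nearest array at 2.15). Combination replicate 2 was above the other TP-16 arrays for the second Clec9a probe (-0.99), Tlr11 (-1.5), Btla (-0.14) and Septin3 (-0.52), and below them for Egr1 (3.68, with the nearest array at 4.21).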

How the results depend on the processing

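The called probes all kept their direction under the alternatives, several of which share the same estimates, except with normexp (869 of 905) and with spike-in scaling (814 of 905). Of them, 462 could be compared with probes above background on all 8 arrays and 693 with 1 probe per gene. With unadjusted and adjusted p in that order, the counts were 531 and 488 with normexp, 6264 and 2319 with no filter, 712 and 554 with probes above background on all 8 arrays, 4753 and 3064 at a fold of 1.5, 14864 and 14809 with spike-in scaling (chosen after seeing the data), and 927 and 0 with the methods' t-test. Without the antibody term limma called 0 at adjusted p. The share of higher probes, 34.3% and 33.8%, was 71.8% and 73.7% after quantile normalization and with the authors' log2 values, 99.3% with spike-in scaling under both rules, 8.6% and 14.0% with no filter, 44.6% and 45.4% with array weights, 19.6% with the methods' t-test (unadjusted) and 23.8% at a fold of 1.5 (adjusted). The median of all probes was 0.02 after quantile normalization and with the authors' values, 0.97 with spike-in scaling and -0.39 with no filter. The cause of these shifts was not tested.

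The called dendritic cell genes numbered 0 without the antibody term and with the t-test and 17 with spike-in scaling, and their median was 0.57 with normexp and 2.01 with spike-in scaling. The called class II genes numbered 2 after quantile normalization and with the authors' values, 1 with the replicate block or 1 mean per group, 0 without the antibody term and with the t-test, and 10 with spike-in scaling (median 2.7). The called T-cell genes numbered 3 with 1 mean per group, 0 without the antibody term and with the t-test, and 18 with spike-in scaling (median 2.45). The called red blood cell genes numbered 0 without the antibody term, with the t-test and with spike-in scaling, and their median was -1.11 after quantile normalization and with the authors' values and -0.38 with spike-in scaling.

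Leaving out each array in turn, the counts ranged from 1090 to 1925 (unadjusted) and from 0 to 965 (adjusted), the shares of higher probes from 24.4% to 51.1% and from 17.3% to 57.9%, with the highest of both without vehicle replicate 2, and the median from -0.12 to -0.10. The called genes ranged from 0 to 9 (dendritic, medians 0.85 to 1.09), 0 to 4 (class II, 0.96 to 2.06), 0 to 10 (T cell, 0.82 to 1.62) and 0 to 5 (red blood cell, -1.62 to -1.16). Replicate numbers were not taken to pair the samples in the main fit. Replicate deviations correlated over 0.1 for 4 of 6 group pairs (range -0.19 to 0.29). The number also goes with the slide column, 1 or 3 for replicate 1 and 2 or 4 for replicate 2. Whether replicates of 1 number share an effect was not tested. The replicate block gave 1581 and 825 probes, and it lost calls of complement and class II genes.

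Of 2457 values of named genes under the alternatives, 1751 kept direction and side of the threshold, 573 lost the threshold, 77 gained it and 56 changed sign, most of them near 0 or under spike-in scaling. With normexp Ptger1 was -0.39, Ptgs2 0.00, Ptgr1 0.05, Ptgr2 0.01 and Il10 -0.11. After quantile normalization and with the authors' values Ptges3 was 0.07, Ppargc1a 0.35 and 0.36, Pck1 0.33, Lamp1 0.27 and Mrc1 0.01. Leaving out each array changed the sign of 9 genes, with ranges of -0.14 to 0.25 for Ptger1, -0.17 to 0.02 for Ptgs2, -0.13 to 0.10 for Ptgr1, -0.29 to 0.04 for Ppargc1a, -0.38 to 0.25 for Pck1, -0.04 to 0.57 for Gzmb, -0.42 to 0.16 for Prf1, -0.22 to 0.11 for Mrc1 and -0.05 to 0.62 for Chil3. With spike-in scaling the values were Pla2g4a 0.81, Ptgs1 0.76, Ptgs2 1.01, Ptges 0.79, Ptges2 0.76, Ptges3 0.91, Ptgr1 1.07, Ptgr2 1.04, Jun 0.88, Junb 0.81, Egr1 0.90, Nr4a1 0.95, Nr4a3 0.53, Ppargc1a 0.99, Pck1 0.97, Ier2 0.71, Prf1 0.87, Lamp1 0.89, Mrc1 1.00, Il6 0.15, Cxcl1 0.70, Il11 0.03 and Il5ra 0.04. The other small structured RNA and complement values are given with those genes.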
